A study of Mus musculus with 24 samples.

Results

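A set of 8 epithelial genes of the liver, namely Krt7, Krt19, Krt8, Krt18, Epcam, Sox9, Spp1 and Cd24a, was followed in mouse hepatocyte cultures, and 7 of them were measured. They were chosen by name, as markers of bile duct and progenitor epithelium, with the keratins Krt8 and Krt18 set as the comparison for Krt7 and Krt19. Every probe set that the platform annotation gives to 1 of these symbols alone was taken, which found 14 probe sets for 7 genes, of 45037 probe sets and 18194 named genes in all. No probe set was found in this way for Spp1, which encodes osteopontin, and it was not analysed here. The samples were 24 RNA samples of MMH-D3, a mouse hepatocyte line, with 1 array for each time point and no replicates. Confluent cells had been kept for 14 days in medium with 2% DMSO and then given a serum shock, a pulse of serum that sets the clocks of cultured cells to a common phase. The first sample was taken at 12 h after the shock and the last at 58 h, in steps of 2 h. All samples share the line, the DMSO and the shock, and there was no unshocked control. MMH lines were derived from livers of mice that carry a transgene for a truncated, active form of the receptor MET, so the cells are an immortalized model of hepatocytes and 1 line stands for all.

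Keratins are the intermediate filament proteins of epithelial cells, and each filament is built from pairs of a type II and a type I keratin. Hepatocytes of the adult liver make KRT8 (type II) and KRT18 (type I), whereas cholangiocytes, the cells that line the bile ducts, make KRT7 (type II) and KRT19 (type I) as well. EPCAM is a cell adhesion protein of cholangiocytes and of liver progenitor cells, SOX9 is a transcription factor of the developing and adult bile duct, and CD24, encoded by Cd24a, is a surface protein of ductal and progenitor cells.

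Promoters of Krt7, Krt8, Krt18 and Epcam are shown. The results below turn on the different courses of Krt7 and Krt8 and on the fall of Epcam. Krt18 is the partner of Krt8 and the other comparison keratin. Each run covers 250 bases before to 50 bases after the annotated start of the gene (RefSeq, GRCm38.p6), printed in the direction of the gene. Capitals mark matches, on either strand, to GGGCGG, known as a GC box, to TATAAA, known as a TATA box, to TGANTCA, known as an AP-1 site, to CACGTG, known as an E-box, or to CCAAT.
Krt7 (chr15:101412153-101412452, plus strand): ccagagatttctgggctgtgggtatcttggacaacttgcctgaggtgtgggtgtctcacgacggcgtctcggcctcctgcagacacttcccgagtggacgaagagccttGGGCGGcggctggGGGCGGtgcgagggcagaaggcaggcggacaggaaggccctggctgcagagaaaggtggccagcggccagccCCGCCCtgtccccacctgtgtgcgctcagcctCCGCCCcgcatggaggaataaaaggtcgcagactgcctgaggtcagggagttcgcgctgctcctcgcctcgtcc
Krt8 (chr15:102004293-102004592, minus strand): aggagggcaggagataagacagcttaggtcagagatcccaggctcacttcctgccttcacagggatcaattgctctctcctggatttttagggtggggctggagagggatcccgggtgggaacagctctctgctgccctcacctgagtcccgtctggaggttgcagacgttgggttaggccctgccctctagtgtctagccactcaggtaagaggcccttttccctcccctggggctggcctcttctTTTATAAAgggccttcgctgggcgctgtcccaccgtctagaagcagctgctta
Krt18 (chr15:102027966-102028265, plus strand): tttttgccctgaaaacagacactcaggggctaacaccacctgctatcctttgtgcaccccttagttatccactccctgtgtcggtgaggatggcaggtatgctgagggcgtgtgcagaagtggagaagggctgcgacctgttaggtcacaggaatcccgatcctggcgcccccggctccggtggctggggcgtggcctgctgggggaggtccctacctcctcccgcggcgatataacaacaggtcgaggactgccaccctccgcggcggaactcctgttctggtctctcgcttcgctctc
Epcam (chr17:87635729-87636028, plus strand): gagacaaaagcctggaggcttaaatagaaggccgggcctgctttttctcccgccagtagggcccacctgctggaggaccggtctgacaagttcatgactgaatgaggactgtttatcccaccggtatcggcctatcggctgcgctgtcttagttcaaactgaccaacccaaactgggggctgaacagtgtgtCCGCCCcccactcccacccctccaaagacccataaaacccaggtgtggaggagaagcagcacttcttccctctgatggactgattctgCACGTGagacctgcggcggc
The Krt7 window held 4 GC boxes and the Epcam window 1, while 35.7% of 32851 promoter windows of the same length hold at least 1. The Krt8 window held TATAAA on both strands, overlapping each other, at positions -3 and -1 from the start, and 13.6% of all windows hold this motif. An E-box, the motif read by the CLOCK and BMAL1 proteins, was found in the Epcam window at base 31 after the start, and 7.15% of all windows hold one. None of the 5 motifs was found in the Krt18 window, and neither CCAAT, held by 37.4% of all windows, nor TGANTCA, held by 7.81%, was found in any of the 4. These matches describe the letters of the windows and were not tested against the time courses. Krt8 and Krt18 lie close to each other on chromosome 15, where Krt7 also lies.

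Values are log2 GCRMA values, which correct for background and put the arrays on a common scale. They ran from 2.17, the lowest value of the table, to 17.47, and a probe set was kept as measured where it reached 5 on at least 6 of the 24 arrays, which left 18526. Of the 14 probe sets of the markers 13 passed, and the remaining probe set, 1 of 3 for Sox9, lay at 2.18 on average. Where a gene has several probe sets, the one with the highest average over the arrays stands for it, and levels are not compared between probe sets, since each has its own response. Median values over the kept probe sets lay between 8.96 at 40 h and 9.14 at 46 h, and the share of all probe sets at the lowest value between 39.3% at 40 h and 42.1% at 46 h. The array at 40 h was thus at the end of both ranges.

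All 7 genes were well above the lowest value of the table on every array. Krt18 averaged 15.79 ± 0.0934 (SD, n = 24 arrays), Krt19 15.44 ± 0.165, Krt8 15.27 ± 0.178 and Cd24a 14.92 ± 0.231. Krt7 averaged 12.53 ± 0.253, Epcam 10.83 ± 0.566 and Sox9 8.65 ± 0.213. These SDs hold the course over time as well as the scatter. Other genes of both epithelia were present in part, with 9 of 17 bile duct genes and 8 of 13 hepatocyte markers on the array above the filter. Among the bile duct genes, Anxa13 averaged 14.98, Bicc1 14.47 and Ehf 12.71, whereas Cftr (the chloride channel of cholangiocytes) averaged 2.17, Aqp1 (a water channel) 2.21 and Sctr (the secretin receptor) 2.17, and the claudins Cldn4 and Cldn7 averaged 2.17 and 2.22. Among the hepatocyte markers, Alb (albumin) averaged 15.97, whereas Cps1, Asgr1, Cyp3a11, Tat and G6pc averaged 2.17. The label therefore describes the genes and names no cell type. Bulk RNA cannot tell fewer cells with a transcript from less transcript per cell. Markers of fibroblasts and stellate cells (9 of 9) and of endothelium (5 of 5) were below the filter. Their summed level, as log2 of the sum of linear values, was 5.55 to 5.61 on the second day and 5.51 to 5.65 on the first day for the fibroblast and stellate markers. The endothelial sum was 4.49 to 4.51 on both days.

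**Figure D1:**
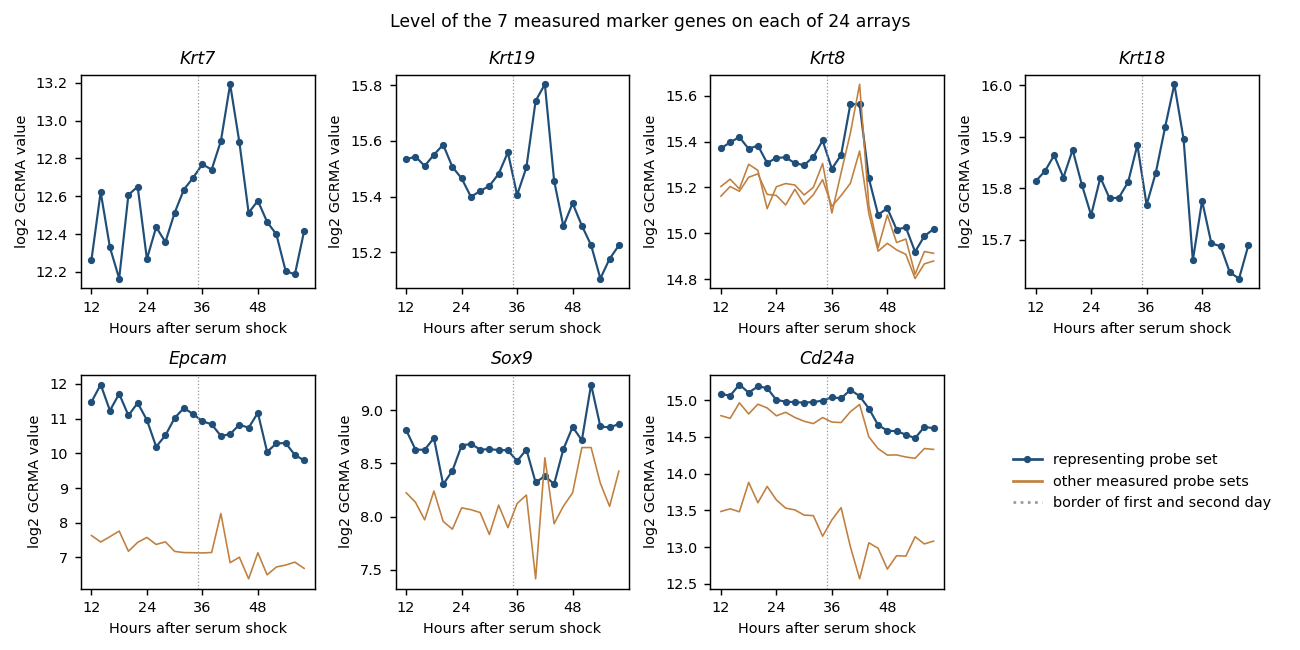
Log2 GCRMA value of each measured probe set against hours after serum shock, 1 panel per gene with its own vertical axis and 1 point per array, with the representing probe set in dark blue and other probe sets in brown. Krt7, Krt19 and Krt18 reached their highest value at 42 h, Epcam had its lowest at 58 h, and in the representing probe set of Cd24a all 8 arrays from 44 h on lay below the earlier ones.

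The next comparison asked which markers changed over the 46 h of sampling. Epcam, Cd24a and Krt8 fell, and none of the 7 genes rose past the threshold. A straight line over time was fitted with limma to every kept probe set, together with a 24 h cosine wave of free phase, and p-values were adjusted over all 18526. The 3 falls among 7 genes stand beside 16.7% of all probe sets called lower and 24.9% called higher. By probe sets, 7 of 13 were called lower and 0 higher. The median change of all kept probe sets was 0.0598, and centring each array on its median, which removes that shift, gave 3653 probe sets called higher and 3952 called lower, against 4604 and 3087 as deposited.

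Epcam had the largest fitted change of the 7. Its values had a lowest of 9.80 at 58 h, a median of 10.88 and a highest of 11.98 at 14 h. Means over consecutive 8 h (4 arrays each) were 11.60, 10.92, 10.99, 10.70, 10.69 and 10.08, so the level was highest in the opening 8 h and lowest in the last. The fitted change over 46 h was -1.29 ± 0.25 (SE) on the log2 scale, a fold of 0.41 (adjusted p = 0.000267). The other probe set, at a mean level of 7.18, changed by -0.88 ± 0.23 (adjusted p = 0.00366). Without the arrays from 44 to 58 h the fall remained, with a slope that amounts to -1.60 over 46 h (adjusted p = 0.00375).

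Cd24a fell by 0.53 on the log2 scale over the 46 h (SE 0.0762, adjusted p = 1.06e-05). Its 8 h means were 15.12, 15.08, 14.98, 15.07, 14.68 and 14.57, so they lay between 14.98 and 15.12 up to 42 h and lower after it. All 8 arrays from 44 to 58 h lay below the lowest of the 16 earlier arrays in 2 of its 3 probe sets, while in the remaining one the ranges overlapped. The 8 h means of that probe set were 13.59, 13.65, 13.38, 13.12, 12.91 and 13.04, with its lowest array (12.57) at 42 h. Over the 46 h the probe sets other than the representing one gave -0.60 (adjusted p = 5.94e-05) and -0.96 (adjusted p = 3.64e-05). With the arrays from 44 to 58 h left out, no fall was called (-0.11, adjusted p = 0.245).

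Krt8 changed by -0.31 ± 0.0812 (adjusted p = 0.00378), a fold of 0.806. It held between 15.28 and 15.42 on the arrays from 12 to 38 h, stood at 15.56 at 40 and 42 h, and lay between 14.92 and 15.24 from 44 h on. The fall rests on those last 8 arrays: without them the value was 0.147 (adjusted p = 0.21). Of its other probe sets, one gave -0.29 (adjusted p = 0.00145) and one -0.20, which was not called (adjusted p = 0.126). The representing probe set and the other called one carry the suffix _x_at, which marks probes that may also bind other transcripts.

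The remaining 4 genes were not called. Krt19 gave -0.19 ± 0.0798 (adjusted p = 0.0533), and was called with the arrays centred (-0.26, adjusted p = 0.0275) or without the arrays at 40 and 42 h (-0.31, adjusted p = 8.23e-05). Krt18 gave -0.0847 ± 0.0529 (adjusted p = 0.206), and was called without the arrays at 40 and 42 h (-0.14, adjusted p = 0.0162). Krt7 gave +0.27 ± 0.158 (adjusted p = 0.18) and Sox9 +0.0775 ± 0.129 (adjusted p = 0.656). A straight line describes the course of these genes poorly, as their values by array show.

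Krt7 had its highest stretch around 42 h. It read 12.17 to 12.70 on the 12 arrays of the first day, then 12.77, 12.74, 12.89 and 13.19 from 36 to 42 h, 12.89 at 44 h, and 12.19 to 12.58 from 46 h on. The 5 arrays from 36 to 44 h were the only ones of the second day above the highest first-day array, and none of the second day lay below the lowest first-day array. Up to 42 h its slope, expressed over 46 h, was 0.999 (adjusted p = 0.000853), so with the arrays from 44 to 58 h left out a rise of Krt7 was called.

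Krt19, Krt8 and Krt18 shared a narrower maximum at 40 to 42 h and a low end. Krt19 read 15.74 and 15.80 at 40 and 42 h, against 15.40 to 15.59 on the first day, and 15.11 to 15.46 from 44 h on. Krt18 read 15.92 and 16.00 at 40 and 42 h, 15.75 to 15.88 on the first day, and 15.62 to 15.90 from 44 h on. In both genes the lowest array was at 54 or 56 h. Over the 24 arrays the Pearson correlation of Krt19 was 0.959 with Krt8 and 0.933 with Krt18, and that of Krt8 with Krt18 was 0.903, as a description of arrays that share their scaling. Krt7 correlated less, at 0.619 with Krt19, 0.505 with Krt8 and 0.689 with Krt18.

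**Figure D2:**
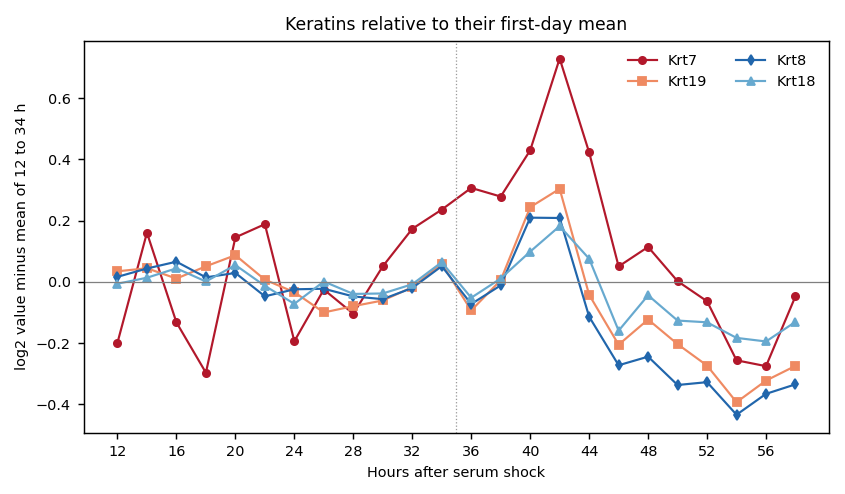
Log2 value of each keratin minus its own mean over 12 to 34 h, against hours after serum shock, with 1 point per array and Krt7 and Krt19 in red tones, Krt8 and Krt18 in blue tones. All 4 curves peak at 40 to 42 h, and Krt7 stands above the other curves at each time from 30 to 52 h and returns to its first-day range by 46 h.

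Sox9 was highest late in the series. Its values lay between 8.31 and 9.24 on the second day and between 8.30 and 8.82 on the first day, with the lowest array at 20 h and the highest at 52 h. The last 8 h averaged 8.95, against 8.46 for 36 to 42 h. Of the 8 arrays from 44 h on, 5 lay above the highest of the earlier 16. The same value, 8.631, was listed on 3 arrays. The 4 arrays at 28 to 34 h ran only from 8.624 to 8.634 (SD 0.00443), where the other 8 h blocks had SDs of 0.0906 to 0.23. Those at 14, 16, 38 and 46 h lay in that same narrow range. The other measured probe set of Sox9 averaged 8.13, with its lowest array at 40 h (7.41) and its highest at 52 h (8.65), and 2 of its 8 arrays from 44 h on lay above all earlier ones. Sox9 correlated negatively with all 4 keratins over the 24 arrays, from -0.692 with Krt18 to -0.649 with Krt8.

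The second comparison set each array of the second day (36 to 58 h) against the array taken 24 h earlier (12 to 34 h), which gives 12 pairs at the same clock phase. Epcam, Cd24a and Krt8 were again lower, here with no curve fitted. Of the 7 genes, 3 were called lower and 0 higher, beside 12.5% of all probe sets called lower and 19.3% called higher. With the arrays centred the calls over all probe sets were 2857 higher and 3135 lower, against 3578 and 2317. Successive pairs resembled each other in the representing probe sets, with a correlation of neighbouring differences from 0.322 (Epcam) to 0.723 (Cd24a). Among the other probe sets the lowest was -0.251, in Epcam. This test and the keratin test after it treat the pairs as independent, so the p-values of the representing probe sets here are too small. For the keratin differences that correlation was not computed, and their p-values may be too small as well. The linear fit above and the later block and rhythm fits also treat serial arrays as independent. Whether the p-values of those fits are too small was not tested.

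Epcam averaged 10.49 ± 0.426 on the second day and 11.17 ± 0.487 on the first day (SD, n = 12 arrays each). It was lower in 11 of 12 pairs, by -0.68 ± 0.131 (SE, adjusted p = 0.00176), a fold of 0.625. The second-day arrays ran from 9.80 to 11.17 and the first-day arrays from 10.19 to 11.98, so the days overlapped.

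Cd24a averaged 14.77 ± 0.24 on the second day and 15.06 ± 0.0908 on the first day, and was lower in 12 of 12 pairs (-0.29 ± 0.0502, adjusted p = 0.000889). Its smallest pair difference was -0.0379 and its largest -0.504. The 4 pairs with second-day arrays up to 42 h gave only -0.0502 (adjusted p = 0.612).

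Krt8 averaged 15.18 ± 0.219 on the second day and 15.35 ± 0.042 on the first day, and was lower in 10 of 12 pairs (-0.17 ± 0.0519, adjusted p = 0.02). It was not called where the filter on low values was dropped (adjusted p = 0.0708), in 1 of its 3 probe sets (adjusted p = 0.136) or without the arrays from 44 to 58 h (0.0485, adjusted p = 0.716).

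Among the other markers, Krt19 was lower in 10 of 12 pairs but was not called (-0.12 ± 0.0518, adjusted p = 0.104), and Krt18 was lower in 8 of 12 (-0.0548 ± 0.033, adjusted p = 0.22). Both were called without the pairs that hold the arrays at 40 and 42 h, at -0.19 (adjusted p = 0.00111) and -0.0893 (adjusted p = 0.0204). Krt7 was higher in 8 of 12 pairs (0.14 ± 0.11, adjusted p = 0.347), with pair differences from -0.449 to 1.03. Sox9 was higher in 8 and lower in 3 of 12 pairs (0.0618 ± 0.0785, adjusted p = 0.575), and 1 pair had equal values. Sox9 was called higher without the arrays at 12 to 18 h and their partners (0.213, adjusted p = 0.019).

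The keratins of the bile duct were then set against those of the hepatocyte. From the first to the second day Krt7 gained on Krt8: the difference in log2 value between them was higher on the second day in 11 of 12 pairs, by 0.316 ± 0.264 (SD of 12 pairs). This was past the threshold in an exact 2-sided sign-flip permutation test (p = 0.00195, adjusted over 4 comparisons 0.00781, where the smallest p possible is 0.000488). The pair values ran from -0.103 to 0.832. Leaving out 1 pair at a time gave 0.269 to 0.354, and each of the other probe sets of Krt8 also passed.

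Krt7 against Krt18 gave 0.196 ± 0.319, higher in 9 of 12 pairs, which was not past the threshold (exact permutation p = 0.0537, adjusted 0.0716). Krt19 gained little on Krt8, by 0.0598 ± 0.0647 and in 11 of 12 pairs (exact permutation p = 0.00391, adjusted 0.00781). That call depends on the Krt8 probe set, since the other probe sets gave 0.00609 (adjusted p = 0.762) and 0.0537 (adjusted p = 0.0674) in the exact test. Krt19 against Krt18 gave -0.0602 ± 0.105, higher in 3 of 12 pairs (exact permutation p = 0.0732, adjusted 0.0732). Both called differences are thus against Krt8, and neither difference against Krt18 was called. Krt8 and Krt18 themselves differed in their change between the days, at -0.17 and -0.0548. The calls therefore do not set the bile duct keratins apart from both hepatocyte keratins. Krt18 against Krt8 was not tested.

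The third comparison looked at the passage from 42 to 44 h, which was chosen because earlier results of these data showed many transcripts to move there. The 4 arrays at 44 to 50 h were set against the 4 at 36 to 42 h, within a model that gives each 8 h block its own mean. This model has no 24 h term, and the compared blocks differ in clock phase, so a phase difference was not separated. Cd24a, Krt8 and Krt19 fell, and none of the 7 genes rose. The 3 falls stand beside 11.4% of all probe sets called lower and 20.3% called higher. Among the 312 kept probe sets of highest mean level, 20.8% were called lower and 14.1% higher. The representing probe sets of Cd24a, Krt8 and Krt19 are among these 312, so falls were more common at their level. With the arrays centred, 3188 of all kept probe sets were lower and 2795 higher, against 2121 and 3755. On the first day, blocks at the same clock phases (20 to 26 h and 12 to 18 h) averaged 15.08 and 15.12 for Cd24a. They averaged 15.34 and 15.39 for Krt8, and 15.49 and 15.53 for Krt19.

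Cd24a read 14.89, 14.66, 14.58 and 14.58 at 44 to 50 h, against 15.04, 15.02, 15.14 and 15.06 at 36 to 42 h. These ranges do not overlap, and the difference was -0.39 ± 0.06 (adjusted p = 4.35e-05). The probe set of Cd24a at a mean level of 13.28 was not called (-0.21, adjusted p = 0.268).

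Krt8 read 15.24, 15.08, 15.11 and 15.02 at 44 to 50 h, against 15.28, 15.34, 15.56 and 15.56 at 36 to 42 h, again without overlap (-0.33 ± 0.055, adjusted p = 0.000117). All 3 probe sets of Krt8 were called lower here. Krt19 read 15.46, 15.29, 15.38 and 15.30 at 44 to 50 h, against 15.41, 15.50, 15.74 and 15.80 at 36 to 42 h, and these ranges overlap (-0.26 ± 0.0651, adjusted p = 0.00435). The fall of Krt19 rests on the arrays at 40 and 42 h, without which it was -0.0994 (adjusted p = 0.202), and with only the 8 arrays compared in the fit the same difference of -0.26 had an SE of 0.0921 and was not called (adjusted p = 0.0856).

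Krt7 gave -0.29 ± 0.115 and Krt18 -0.12 ± 0.049, neither past the threshold (adjusted p = 0.0586 and 0.0579), and both were called with the arrays centred (-0.36, adjusted p = 0.0169, and -0.19, adjusted p = 0.0108). Epcam gave -0.01 ± 0.237 (adjusted p = 0.979), so its fall over the series was not located here in the representing probe set. The other probe set of Epcam was called lower (-0.59, adjusted p = 0.0341), with an isolated high value of 8.26 at 40 h, where the 3 other arrays of its block read 6.85 to 7.14. Sox9 gave +0.16 ± 0.111 (adjusted p = 0.278).

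**Figure D3:**
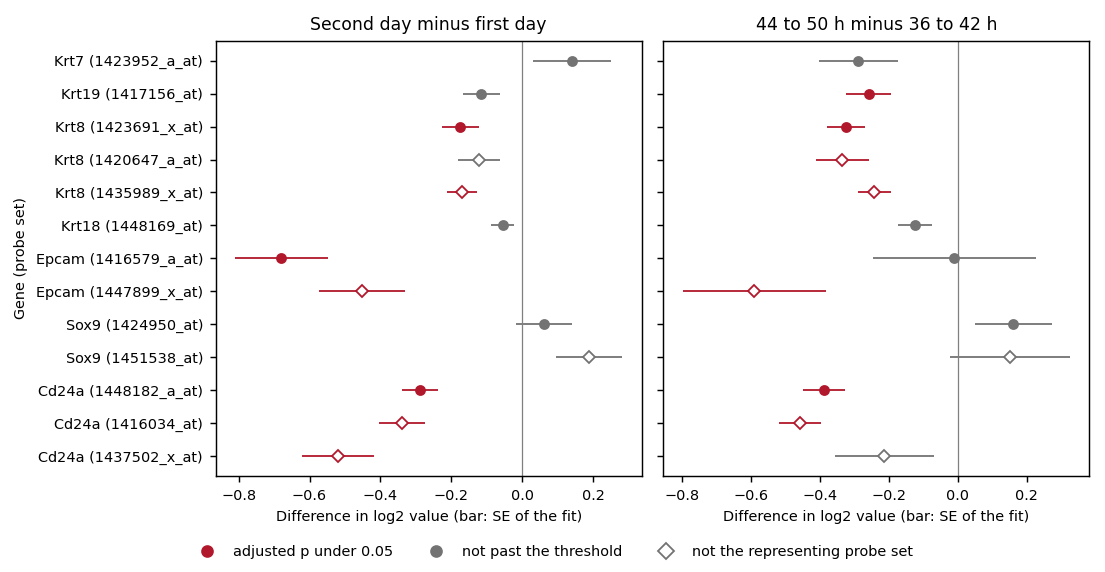
Difference in log2 value for each of the 13 measured probe sets, with the SE of the fit, for the second day minus the first day (left) and for 44 to 50 h minus 36 to 42 h (right). Red points passed an adjusted p of 0.05, and open diamonds are probe sets that do not represent their gene. The Cd24a probe sets lie left of 0 in both panels, while Krt7 lies right of 0 on the left and left of 0 on the right.

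The study sampled a circadian course, so a 24 h rhythm was tested for each marker with the straight line kept as drift. None of the 7 genes was called, beside 2.59% of all probe sets. Before adjustment 6 of 7 had a p under 0.05 in this F test. The share of all probe sets under that unadjusted threshold was not counted, so the 6 cannot be set against it. The fitted amplitude, the height of the cosine above its mean, was 0.206 ± 0.0672 for Krt7 (adjusted p = 0.165) and 0.127 ± 0.034 for Krt19 (adjusted p = 0.0814). It was 0.105 for Krt8, 0.071 for Krt18, 0.117 for Cd24a, 0.164 for Epcam and 0.17 for Sox9, with adjusted p from 0.0935 (Cd24a) to 0.588 (Epcam). Fitted peaks of the 4 keratins and Cd24a fell between 15.9 and 17.1 h and that of Sox9 at 30.2 h, as values of fits that were not called.

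This outcome changed with the drift term and with the arrays used. With a step between 42 and 44 h added to the line, 6 of 7 genes were called, beside 14.6% of all probe sets, and the exception was Epcam. A quadratic drift called 5 genes, beside 11.1% of all probe sets, and leaving out 12 to 18 h called 6, beside 14.4%. With the step and without the arrays at 40 and 42 h, 1 gene was called, Cd24a (amplitude 0.107, adjusted p = 0.0137), beside 11.6% of all probe sets. Calls of the other 5 were lost there, while the amplitude with the step was 0.177 without those arrays and 0.204 with them for Krt7, and 0.186 without and 0.18 with them for Sox9. For Krt19, Krt8 and Krt18 it was 0.0734, 0.053 and 0.0467 without those arrays, against 0.125, 0.0946 and 0.0694 with them.

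Genes whose course was most like that of each marker were named by the highest Pearson correlation over the 24 arrays, among 9824 measured genes. Epcam was most like Clec2h (0.974), Cdhr5 (0.973) and Tm6sf2 (0.971). Cd24a was most like Sult1a1 (0.976), Ugt2b36 (0.951) and ccdc198 (0.95). Krt8 was most like Arf1 (0.975), Crip1 (0.968) and Gsta4 (0.968). Krt19 was most like Alb (0.959), Krt8 (0.959) and Gsta4 (0.951), and Krt18 like Alb (0.934), Krt19 (0.933) and Actg1 (0.915), the gene of a cytoplasmic actin. The closest genes were less close for Krt7, at 0.82 for Cavin3, 0.816 for Habp2 and 0.807 for Prr15l. Sox9 was most like Ltbp1 (0.838), Nek7 (0.776) and Fam210b (0.76). Such correlations hold a common drift over time, and no test is attached to them.

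Other genes of the bile duct mostly fell as well. Of 20 genes listed, 17 were found on the array and 9 were measured, of which 6 fell and 2 rose over the 46 h, beside 16.7% of all probe sets called lower and 24.9% called higher, and with a median change of -0.412, beside a median of 0.0598 for all probe sets. Bicc1, an RNA-binding protein of kidney and bile duct epithelium, fell by 0.54 (adjusted p = 1.66e-05), and Ehf, an epithelial transcription factor, fell by 0.59 (adjusted p = 7.67e-05). Slc4a2, the anion exchanger of cholangiocytes, rose by 0.62 (adjusted p = 0.000245), and Onecut2, a transcription factor of bile duct development named here after its value was seen, rose by 0.63 (adjusted p = 0.00417). Second minus first day, 5 were lower and 2 higher, beside 12.5% and 19.3% of all probe sets. Without the arrays from 44 to 58 h, none of the 9 was called lower, and 2 were called higher in the linear comparison (1 in the paired one). Of all 18526 probe sets, that linear comparison called 2987 lower and 2657 higher, and the paired one 769 and 1070. Slc4a2 was not called in the linear one (0.341, adjusted p = 0.135).

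The fetal and progenitor genes moved in different directions, with 2 rises and 1 fall among 5 measured, beside 24.9% of all probe sets called higher and 16.7% called lower. Igf2, a growth factor of the fetal liver, averaged 5.97 on the second day and 8.13 on the first day, and its fitted change was -4.11 ± 0.272 (adjusted p = 1.05e-10). Hmga2, a chromatin protein of fetal tissues, averaged 11.04 on the second day and 9.83 on the first day (fitted change 2.14 ± 0.409, adjusted p = 0.000229), with all 3 probe sets called. Without the arrays from 44 to 58 h Hmga2 was not called and had the opposite sign (-0.17, adjusted p = 0.77). Afp, a fetal albumin-like protein, rose by 0.33 (adjusted p = 0.019), and was not called without those arrays (0.162, adjusted p = 0.54).

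Notch signalling from a ligand on one cell to a receptor on its neighbour directs progenitors to the bile duct fate, and SOX9 is among its targets there. Of 15 Notch genes on the array 10 were measured, with 6 rises and 1 fall over the 46 h, beside 24.9% of all probe sets called higher and 16.7% called lower. Nrarp, a target and feedback inhibitor of the pathway, rose by 2.02 (adjusted p = 2.14e-09), and the ligand Jag1 rose by 1.02 (adjusted p = 1.7e-06). The ligand Dll1 rose by 0.91 (adjusted p = 0.00199), a call that ended without the arrays from 44 to 58 h (0.0685, adjusted p = 0.868). Hey1, a target gene, fell by 1.01 (adjusted p = 0.00055). Second minus first day, 4 were higher and 1 was lower, beside 19.3% and 12.5% of all probe sets. Nrarp averaged 8.995 on the second day and 7.89 on the first day.

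Of 13 other keratins on the array 4 were measured, and 2 of them fell, beside 16.7% of all probe sets called lower. Krt20, a keratin of gut epithelium, averaged 14.27 ± 0.21 and fell by 0.28 (adjusted p = 0.0369), a call lost under quantile normalization (-0.249, adjusted p = 0.0558) and without the arrays from 44 to 58 h (-0.145, adjusted p = 0.55). Krt10 fell by 0.40 (adjusted p = 0.0223), and was not called between the days (-0.18, adjusted p = 0.13) or, over the 46 h, without the arrays at 12 to 18 h (-0.164, adjusted p = 0.401). Krt12 lay near the filter at 4.80 and was not called (0.454, adjusted p = 0.251). Krt80 was not called either.

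Among 9 measured genes of desmosomes and keratin linkers, 3 rose over the 46 h and none fell, a share near the 24.9% of all probe sets called higher. Pkp1, a desmosomal plaque protein, rose by 1.40 (adjusted p = 0.000247) at a mean level of 5.07, and was not called without the arrays from 44 to 58 h (0.201, adjusted p = 0.523). Plec, which ties keratin filaments to other structures, rose by 0.71 (adjusted p = 0.0033), but another probe set of Plec gave -0.461 (adjusted p = 0.0531). Evpl, envoplakin, rose by 0.76 (adjusted p = 0.0243), but was not called without the arrays at 12 to 18 h (0.106, adjusted p = 0.756), and it was not called between the days (0.334, adjusted p = 0.134). Without the arrays at 40 and 42 h Evpl gave 0.628 (adjusted p = 0.0586). Jup, plakoglobin, gave -0.26 (adjusted p = 0.092), and was called lower with the arrays centred (-0.32, adjusted p = 0.0401).

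Receptors of osteopontin were listed because Spp1 itself was not analysed. Of 10 on the array 6 were measured, of which 4 rose and none fell, beside 24.9% of all probe sets called higher and 16.7% called lower. The integrin subunit Itgb1 rose by 0.36 (adjusted p = 0.000183), although 1 of its 3 probe sets gave 0.0669 (adjusted p = 0.236). Itgb5 rose by 0.41 (adjusted p = 0.000789) and Itga5 by 0.71 (adjusted p = 0.00457), and a second probe set of Itga5 was not called (0.429, adjusted p = 0.164). Without the arrays from 44 to 58 h Itgb1 and Itgb5 were not called, at 0.133 (adjusted p = 0.36) and 0.195 (adjusted p = 0.351), and without those at 12 to 18 h Itga5 was not (0.587, adjusted p = 0.0573). Cd44, an osteopontin receptor that also marks progenitors, averaged 15.04 ± 0.0602 and was not called.

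**Figure D4:**
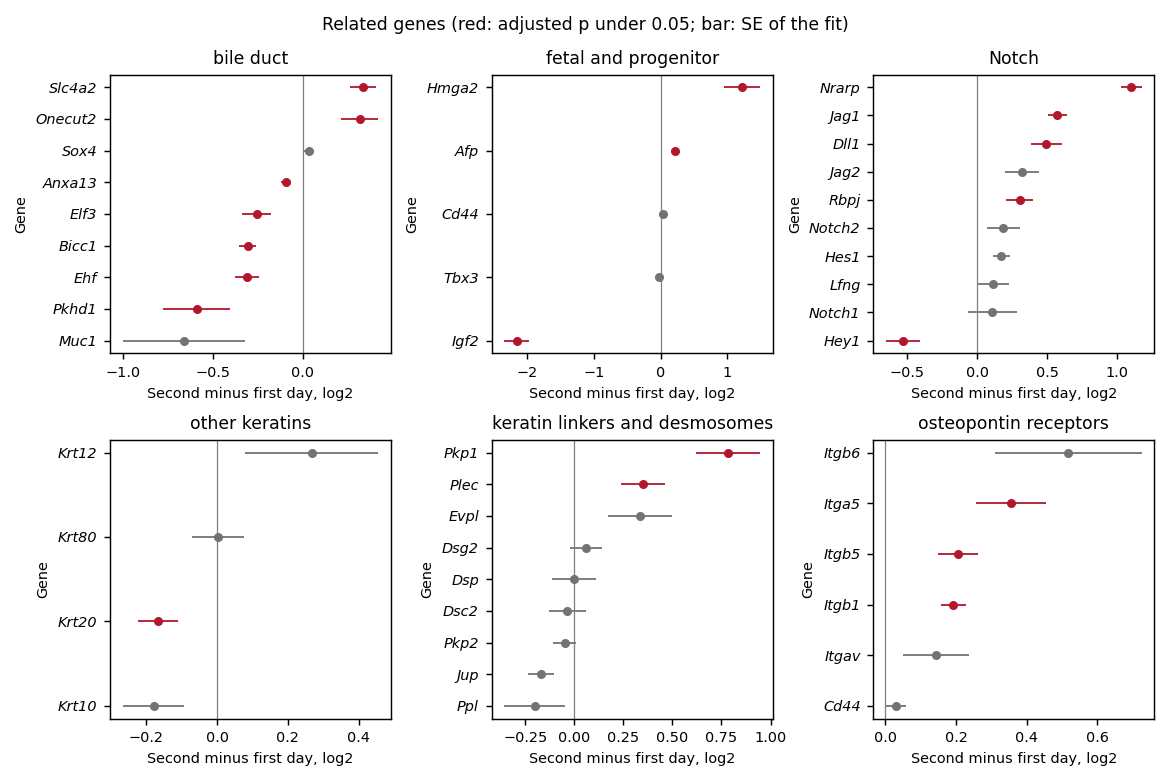
Second day minus first day in log2 value for each measured gene of 6 related lists, 1 panel per list with its own horizontal axis, with the SE of the fit and red points for an adjusted p under 0.05. Most bile duct genes lie left of 0 and most Notch genes right of 0.

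Hepatocyte markers moved beside these lists. Of 8 measured, 4 fell over the 46 h, beside 16.7% of all probe sets called lower. These were Fgb (-1.37, adjusted p = 3.03e-07), Ttr (-1.34, adjusted p = 2.27e-05), Apoa1 (-2.54, adjusted p = 5.34e-05) and Alb (-0.34, adjusted p = 0.0365), and Cebpa rose by 0.26 (adjusted p = 0.046). Between the days 3 were lower and 0 higher, beside 12.5% and 19.3% of all probe sets. Alb (-0.197, adjusted p = 0.0723) and Cebpa (0.118, adjusted p = 0.138) were not called there. The log2 of their summed level ran from 15.94 to 16.91 on the second day and from 16.50 to 16.95 on the first day. The summed level of the bile duct and progenitor markers ran from 15.98 to 16.64 on the second day and from 16.34 to 16.54 on the first day. That sum is of 6 genes, Krt7, Krt19, Epcam, Sox9, Cd24a and Cftr, so it restates the markers above. Its highest members are Krt19 (mean 15.44) and Cd24a (14.92), and that of the hepatocyte sum is Alb (15.97). Macrophage markers gave 14.61 to 15.13 on the second day and 14.67 to 14.91 on the first day, nearly all of it Cd14. Of these 7 markers 4 were below the filter, and besides Cd14 only Cd68 (mean 6.146) and Csf1r (5.365) passed it. Vim, the filament protein of mesenchymal cells, averaged 15.61 and was not called (-0.0167, adjusted p = 0.903). The part of these changes in the results for the epithelial markers was not tested.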

How the data were processed

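Deposited values of 45101 probe sets on 24 arrays are on a log2 scale, as judged by their range. Per the submitters' processing notes the authors used GCRMA, whose version is not given in the sources used here. Biotin-labelled RNA was prepared by Affymetrix's protocol, per the labels' protocols. Controls (64 probe sets) were left out. The annotation gave 1 symbol for 34958 probe sets, of which 34754 matched a RefSeq gene by Entrez ID.

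Models were fitted with limma 3.58.1 in R 4.3.3, letting the variance prior follow intensity, with 2-sided tests and Benjamini-Hochberg adjustment over 18526 probe sets at 0.05. The number of arrays limits the precision. The error is the scatter of arrays about each model, since no time point was replicated and nothing states separate cultures, so p-values measure only the spread between these samples, which may be technical. The paired test had the clock phase as a block. The 4 keratin differences had an exact sign-flip test. The named genes were the 8 markers, the 3 genes closest to each, and from each related list the 3 of smallest p in the linear and in the paired test. The members and lists were chosen with earlier results of these data known. The fits were tested on simulated data with added changes of known size and independent noise. Those data held no correlation between neighbouring arrays, so they cannot show how it affects the p-values. Alternatives covered scaling, filter, variance prior, drift, probe set and arrays left out. Leaving out 40 and 42 h, and the step in the drift, were chosen after seeing the data. Promoters came from RefSeq and figures from matplotlib.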

Additional observations from a re-analysis of the deposited data

How the results depend on the processing

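Epcam kept its fall in the linear and the paired comparison in all 33 alternatives run for each. In the paired comparison, leaving out either array of a pair leaves out both, so those runs repeat each other. The count of markers called (3 of 7 in the linear comparison) was 5 under quantile normalization, 6 without 12 to 18 h, 5 with no 24 h terms and 5 without 40 and 42 h, where 41.8%, 49.3%, 45.1% and 49% of all probe sets were called, against 41.5%, and 3 to 4 with 1 array left out. For the paired comparison it was 6 without 12 to 18 h and 5 without 40 and 42 h, where 51.3% and 39.9% of all probe sets were called, against 31.8%, and 3 to 4 with 1 pair left out. Removing the block for the pair left it within 1.5 times. For 44 to 50 h minus 36 to 42 h it was 5 with centred arrays, where 32.3% of all probe sets were called, against 31.7%. With 1 array left out it was 3 to 5, with 5 without 36, 38 or 44 h, where 32.2%, 31.2% and 34.4% of all probe sets were called. For the rhythm it was 6 without 12 to 18 h, 1 without 44 to 58 h, 1 with no drift term, 5 with quadratic drift, 1 with a spline of 4 df, 6 with the step, and 1 with the step and without 40 and 42 h, and 0 with 1 array left out. In the same order, up to the step without 40 and 42 h, 14.4%, 8.65%, 3.08%, 11.1%, 0.216%, 14.6% and 11.6% of all probe sets were called, against 2.59%. Signs turned in these cases. Without 44 to 58 h the linear and paired values were 0.209 and 0.0798 for Krt19, 0.147 and 0.0485 for Krt8, 0.129 and 0.0468 for Krt18, -0.392 and -0.24 for Sox9, -0.166 and -0.0651 for Hmga2, -0.837 and -0.462 for Krt12, and 0.0853 and 0.00594 for Jup. Without 12 to 18 h Krt7 gave -0.0813 and -0.0653, and Sox9 gave -0.00722 in the linear comparison under quantile normalization. Epcam at 44 to 50 h minus 36 to 42 h gave 0.0637, 0.0341 and 0.207 without 36, 38 and 50 h, within a range of -0.168 to 0.207 with 1 array left out. Of the keratin differences, Krt19 minus Krt18 was -0.107 without 12 to 18 h and -0.0974 without 40 and 42 h (both past the threshold), 0.033 without 44 to 58 h and -0.082 to -0.0487 with 1 pair left out, past the threshold without 16 and 40 h (-0.082). Krt7 minus Krt8 was 0.505 and Krt19 minus Krt8 0.0313 without 44 to 58 h, where 4 pairs cannot pass the threshold. With the other Krt8 probe sets Krt19 minus Krt8 was 0.00609 and 0.0537. With 1 pair left out Krt7 minus Krt18 was 0.137 to 0.237, past the threshold without 30 and 54 h (0.228) or 32 and 56 h (0.237). Over all probe sets, 479 were called rhythmic, against 198 with no filter, 2672 without 12 to 18 h, 1602 without 44 to 58 h, 2064 with quadratic drift, 40 with the spline, 2704 with the step and 2144 with the step and without 40 and 42 h. The paired comparison called 5895, against 9509 without 12 to 18 h and 1839 without 44 to 58 h, and 44 to 50 h minus 36 to 42 h called 5876, against 2896 from the 8 arrays alone and 3814 without 40 and 42 h. The cause of these differences was not tested.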
